A study of Homo sapiens with 21 samples.

Results

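A pair of edited sublines of 1 leukaemia line were set against each other under the solvent DMSO: cells knocked out for HK2 (3 libraries) and cells knocked out for PGP (3 libraries), 6 of the 21 libraries of the series. The members were chosen by their labels alone, and no measured value entered the choice. Setting the edited lines against each other asks which transcripts differ with the gene that was knocked out, apart from what both lines share against unedited cells. All libraries came from MV4-11, a human leukaemia line of mixed B-lymphoid and myelomonocytic character with a KMT2A rearrangement, grown in RPMI-1640 with serum. The other groups used here are wild type cells in DMSO (3 libraries) and each knockout after 24 h of ironomycin (3 libraries each), a salinomycin derivative also named AM5. The remaining 6 libraries, wild type cells at 6 h and 24 h of ironomycin, entered the shared estimate of the spread. The labels give neither the guides, nor whether a knockout was 1 clone or a pool, nor the time in DMSO. No second line is labelled for either knockout, and each is called 1 line here. The missing gene and the history of the cells then cannot be told apart. Nothing in the labels ties replicates to separate cultures, and the spread behind each p-value may then be technical.

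Hexokinases phosphorylate glucose and so commit it to glycolysis, the pentose phosphate pathway and other routes. HK2 is the inducible isoform, often high in tumours, and HK1 is the widely expressed isoform. PGP is a phosphatase that removes phosphoglycolate and related side products of glycolysis and can also act on glycerol 3-phosphate. A rise in glucose 6-phosphate is sensed by the transcription factor MondoA, whose best-known targets, TXNIP and ARRDC4, encode arrestin-like proteins that limit glucose uptake. MondoA and its partner MLX bind E-boxes of the form CACGTG.

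The assay counted reads near the 3′ ends of messenger RNAs, and levels are CPM, a gene's count relative to its library's total, scaled between libraries with TMM factors. The 6 libraries held 3829274 to 5924072 counts, where 3 counts correspond to 0.506 to 0.783 CPM, a floor that covers counting error only. Of 11 markers of MV4-11, 9 averaged at least 5 CPM over the 6 libraries, led by the receptor FLT3 at 259 CPM. The 2 exceptions were LYZ and ITGAM. The summed level of these markers was 574 to 620 CPM in the HK2 knockout and 496 to 579 in the PGP knockout. Of 7 erythroid markers, 5 were at 0 in all 6 libraries, and the sum never passed 1.49 CPM. B-lymphoid markers summed to 24.1 to 47.3 CPM in the HK2 knockout and 39.6 to 64.5 in the PGP knockout, most of it IGLL1, which the line itself expresses, and 3 of the 8 were at 0. T and NK lymphoid markers summed to 9.6 to 14.4 and 9.1 to 18.1 CPM. On the first principal component of the 9 DMSO libraries, which held 21.3% of the variance, PGP knockout replicates 2 and 3 stood at 29 and 24. PGP knockout replicate 1, at −2.64, stood nearer to the wild type libraries (−12.6 to 0.702) and to the HK2 knockout libraries (−16.1 to −9.89). The PGP knockout libraries thus do not lie together on this axis. The second component (17.1% of the variance) ordered the libraries by replicate number in all 3 genotypes: replicate 1 at 8.82 to 24.1, replicate 2 at −6.39 to −0.15 and replicate 3 at −22.1 to −8.37. The labels do not say what the numbers mark, and results against wild type are therefore also given with the number as a block in the fit.

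Each targeted transcript was measured lower in its own knockout than in the other knockout, and neither was lost. HK2 (ENSG00000159399, chromosome 2) stood at 24.8, 21.2 and 20.0 CPM in the 3 HK2 knockout libraries and at 45.2, 36.1 and 48.1 CPM in the 3 PGP knockout libraries. Every HK2 knockout library lay below every PGP knockout library, and also below the wild type libraries at 45.9, 42.4 and 69.5 CPM. The log2 difference of HK2 knockout minus PGP knockout was −0.97 ± 0.29 (SE, n = 3 per group, 95% interval −1.57 to −0.38, edgeR unadjusted p = 0.00258), a 1.96-fold lower level. It was not called over all genes tested in the fit of all 21 libraries (edgeR adjusted p = 0.436), and it was called in a fit of the 6 libraries alone (edgeR adjusted p = 0.0046). PGP (ENSG00000184207, chromosome 16) stood at 95.8, 86.4 and 103 CPM in the HK2 knockout and at 71.7, 71.0 and 83.6 CPM in the PGP knockout. The PGP groups did not overlap either, but the difference was small, 0.33 ± 0.12 (95% interval 0.08 to 0.59, edgeR unadjusted p = 0.0128), and it was called neither with 21 libraries (edgeR adjusted p = 0.467) nor with 6 (edgeR adjusted p = 0.132). The edited sites are not given in the labels, so a 3′ tag that remains checks neither knockout.

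HK1, the other hexokinase measured in these cells, was also lower in the HK2 knockout. It stood at 29.9, 28.0 and 29.2 CPM there, at 40.7, 44.4 and 41.7 CPM in the PGP knockout and at 41.3, 35.9 and 34.8 CPM in wild type. The HK2 knockout libraries lay below all others in DMSO, with a difference from the PGP knockout of −0.54 ± 0.15 (edgeR unadjusted p = 0.00197, adjusted p = 0.436 with 21 libraries and 0.0469 with 6). HK3, the leukocyte hexokinase, HKDC1, and PDXP, the phosphatase closest to PGP, stood at or below 0.535 CPM in each of the 6 libraries and were not tested.

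**Figure D1:**
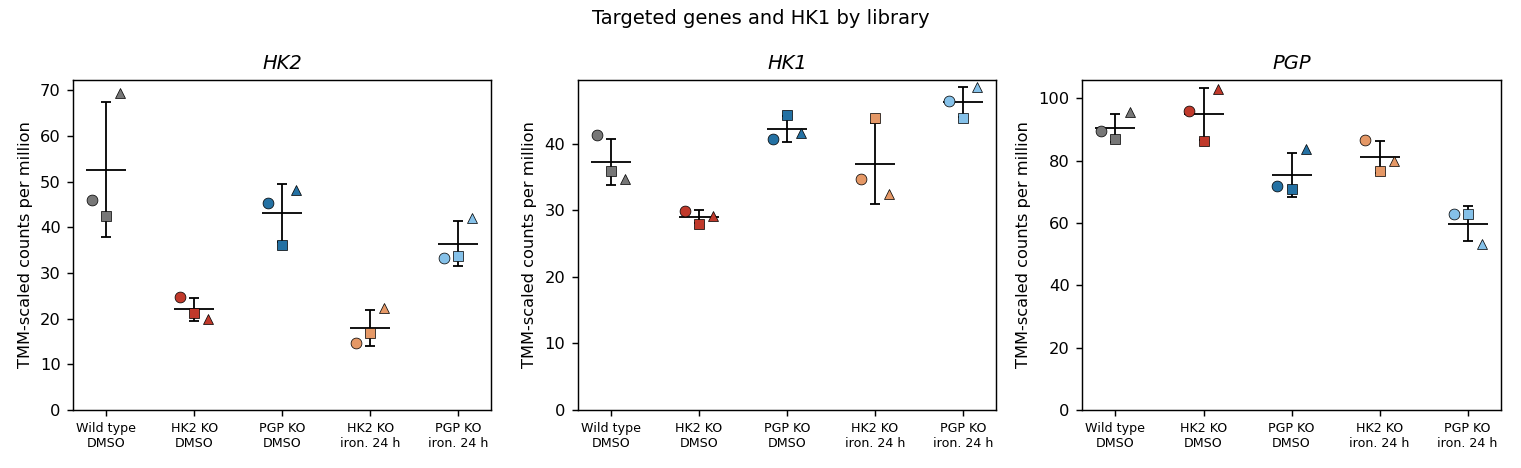
TMM-scaled CPM (vertical axis, linear from 0) of HK2, HK1 and PGP in 15 libraries of 5 groups. Circles, squares and triangles are replicates 1, 2 and 3, horizontal bars the mean and error bars the SD of 3 libraries; HK2 in the HK2 knockout (20.0 to 24.8 in DMSO) lies below the PGP knockout (36.1 to 48.1), and HK1 follows at 28.0 to 29.9 against 40.7 to 44.4.

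The same order of the knockouts was seen in the 6 libraries given ironomycin for 24 h, which share no library with the DMSO comparison but come from the same lines. HK2 stood at 14.7, 16.9 and 22.2 CPM in the HK2 knockout and at 33.3, 33.7 and 42.1 CPM in the PGP knockout (−1.01 ± 0.29, edgeR unadjusted p = 0.0023, adjusted p = 0.903). PGP stood at 86.6, 76.6 and 80.0 CPM against 63.0, 63.0 and 53.2 CPM (0.44 ± 0.12, edgeR unadjusted p = 0.00184, adjusted p = 0.899). HK1 stood at 34.7, 43.9 and 32.4 CPM against 46.5, 43.9 and 48.5 CPM (−0.33 ± 0.15, edgeR unadjusted p = 0.0433, adjusted p = 1.0). For HK1 replicate 2 of each line met at 43.9 CPM, so the gap at 24 h rests on the other libraries.

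Of 10 MondoA and glucose-sensing genes 9 were tested and 0 called, with a median difference of 0.123, and the 3 with an unadjusted p under 0.05 went in both directions. ARRDC4 was lowest in the HK2 knockout. It stood at 1.12, 1.53 and 1.92 CPM there, at 3.48, 2.34 and 3.95 CPM in the PGP knockout and at 4.59, 3.55 and 12.9 CPM in wild type. The 3 groups fall in that order, with the wild type spread set by replicate 3. The difference between the knockouts was −1.06 ± 0.50 (95% interval −2.10 to −0.03, edgeR unadjusted p = 0.0451, adjusted p = 0.511). TXNIP was listed at 0 in every library, and 3 counts would be 0.506 to 0.783 CPM in the 6 libraries. Whether the TXNIP transcript was absent or was not counted cannot be told from these values. ARRDC3, a related arrestin gene, was at 1.12, 3.73 and 1.54 CPM in the HK2 knockout against 0.268, 1.27 and 0.219 CPM in the PGP knockout, with overlapping libraries and levels near the floor (1.80 ± 0.68, edgeR unadjusted p = 0.0147, adjusted p = 0.471). TXNRD1, a thioredoxin reductase, was at 72.3, 78.6 and 73.4 CPM against 70.6, 41.9 and 49.4 CPM, without overlap but with PGP knockout replicate 1 close to the HK2 knockout (0.48 ± 0.16, edgeR unadjusted p = 0.00682). TXN, thioredoxin itself, was at 234, 266 and 281 CPM against 182, 90.3 and 119 CPM (1.00 ± 0.50, edgeR adjusted p = 0.520 with 21 libraries and 0.0066 with 6). ARRDC4 thus lay lower in the HK2 knockout, and these 3 genes higher. The glucose transporter SLC2A3 was at 12.7, 14.3 and 14 CPM against 14.7, 20.0 and 16.5 CPM (−0.32 ± 0.17, edgeR unadjusted p = 0.0645), and at 24 h at 38.9, 42.0 and 47.7 against 54.2, 66.2 and 70.3 CPM (−0.57 ± 0.14, edgeR unadjusted p = 4.8e-04, adjusted p = 0.625). SLC2A3 was thus lower in every HK2 knockout library in both treatments, without being called in either. ARRDC3, ARRDC4, TXNRD1 and SLC2A3 are named after their values were seen.

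The DNA before the starts of ARRDC4 and HK2 is shown because both genes were lowest in the HK2 knockout and a window of each holds the E-box that MondoA binds. Both were picked with these matches known, and HK2 is itself the edited gene, so the matches are no result about the knockouts. HK1, also lowest in the HK2 knockout, had no match. The sequences are RefSeq promoter windows on GRCh38.p14, plus strand, and the capitals mark CACGTG, which reads the same on both strands. Each shows the first 120 bases of a window that runs from 250 bases before to 50 bases after an annotated start, and so ends before the start. The counts themselves were made on hg19, and no coordinate of that build is given.
ARRDC4, chr15:97960453-97960572: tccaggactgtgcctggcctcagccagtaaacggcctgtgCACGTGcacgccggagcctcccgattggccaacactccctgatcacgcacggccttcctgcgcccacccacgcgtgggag
HK2, downstream start, chr2:74834920-74835039: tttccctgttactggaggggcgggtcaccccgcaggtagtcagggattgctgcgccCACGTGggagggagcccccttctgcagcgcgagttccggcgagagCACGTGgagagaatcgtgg
The ARRDC4 match begins 210 bases before the start, and the HK2 matches begin 194 and 149 bases before it. The window of the upstream HK2 start, the PGP window, all 7 HK1 windows and both TXNIP windows held none. Of 35116 windows of this length in the RefSeq table, 2548 (7.26%) held at least 1 CACGTG. Counted by gene, 2396 of 27305 (8.77%) had such a window. A match is a description of these letters, and nothing in these data measures binding.

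Across the transcriptome, no gene was called between the knockouts in DMSO: 0 of 11610 (0.0%) passed an adjusted p of 0.05 in edgeR's quasi-likelihood fit of all 21 libraries, the smallest adjusted p being 0.428. At an unadjusted p under 0.05 there were 1127 genes (9.71%), 512 higher in the HK2 knockout (4.41%) and 615 lower (5.3%). DESeq2 called 0 genes as well, with 1074 at an unadjusted p under 0.05. The median log2 difference over all genes tested was −0.016, and the median SE 0.203. The 3 HK2 and 3 PGP knockout libraries did not overlap for 2340 of the genes (20.2%), against 960 (8.27%) at 24 h of ironomycin. At this spread a difference of the size seen for HK1 or HK2 did not pass the adjusted threshold.

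Fitted on the 6 libraries alone, with no other group informing the spread, 140 of 10569 genes were called (1.32%), 108 higher in the HK2 knockout (1.02%) and 32 lower (0.303%). These 140 genes are the ones described next, since the larger fit called none; they were named by the rule meant for called genes, applied to this alternative fit once the result of the larger fit was known. They are candidates whose call depends on which libraries set the spread. In the fit of 21 libraries 110 of them had an unadjusted p under 0.05, and their adjusted p-values lay between 0.428 and 0.664. The count also moved with single libraries: it was 816 without PGP knockout replicate 1, 9 without PGP knockout replicate 2, 37 without PGP knockout replicate 3, and 78, 26 and 16 without HK2 knockout replicates 1, 2 and 3. In all 6 of these fits 8 genes were called: HK2 lower in the HK2 knockout, and ALDH6A1, EAF2, EMB, MYC, NDUFB3, RPL30 and VIM higher. A fit of the 9 DMSO libraries called 20 of the 140, 15 higher and 5 lower, and 5 genes passed both (ALDH6A1, EAF2, HK2, MYC and VIM). The HK2 and PGP knockout libraries did not overlap for any of the 140, where they did not overlap for 20.2% of all genes. The 140 were called on these same libraries, so this adds no support.

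The spread of these genes in groups that did not enter the 6-library fit is shown beside them. The median deviation of the 108 higher genes from their mean over 21 libraries was 0.305, 0.454 and 0.423 (log2) in the HK2 knockout in DMSO and −0.135, −0.543 and −0.405 in the PGP knockout. In wild type DMSO it was 0.004, 0.007 and 0.483, and in wild type at 6 h of ironomycin −0.067, −1.302 and 0.105. Under ironomycin for 24 h the HK2 knockout had medians of 0.211, −0.301 and 0.628, against 0.36, −0.348 and −0.126 for the PGP knockout. The median of the 108 genes thus varied as widely between replicates of wild type at 6 h, and of the HK2 knockout at 24 h, as between the knockouts in DMSO. For 5 of the 108 the difference between the knockouts exceeded the range within every one of the other 5 groups (ATP13A3, LMNA, LRRC57, SKAP2 and SLC20A2), against 153 of all 11610 genes (1.32%). The 32 lower genes had medians of −0.343, −0.57 and −0.425 in the HK2 knockout, against 0.128, 0.217 and 0.208 in the PGP knockout. Their medians in wild type DMSO were 0.041, −0.13 and −0.122. For 10 of the 32 the difference exceeded the range within every other group (CCDC92, CD70, CORO1A, DGKA, EEF1A2, EVL, HLX, PLEKHO1, SOX4 and TMEM221), against the same 1.32% of all genes. These ranges leave out the spread inside the compared knockout groups, which was wide for CORO1A, as given below. The 140 genes were called on this same difference, so a share above that of all genes is built in by the choice and adds no support. The part of this spread in the 140 calls was not tested.

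**Figure D2:**
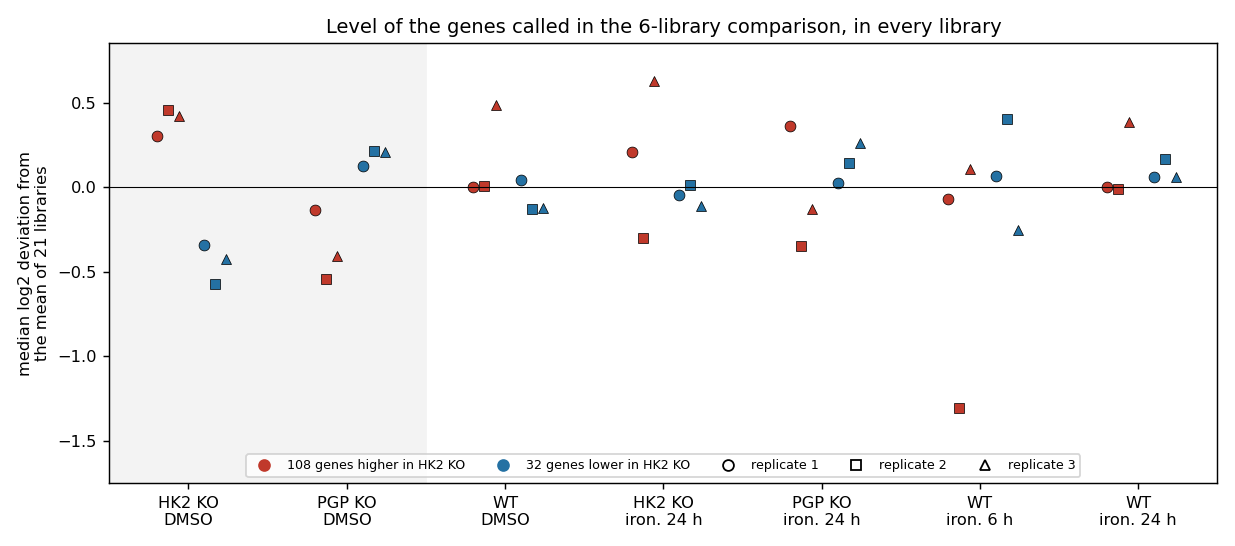
Median log2 deviation from the mean of 21 libraries (vertical axis) of the 108 genes higher (red) and the 32 genes lower (blue) in the HK2 knockout by the 6-library fit, 1 point per library and set in 7 groups, with circles, squares and triangles for replicates 1, 2 and 3. The shaded groups are those the genes were chosen on; outside them the red points range from −1.302 in wild type 6 h replicate 2 to 0.628 in HK2 knockout 24 h replicate 3.

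The genes lower in the HK2 knockout included DGKA, PLEKHO1, CD70 and CORO1A. DGKA, which turns the messenger diacylglycerol into phosphatidic acid, was at 3.8, 6.28 and 4.61 CPM in the HK2 knockout, 13.4, 11.9 and 9.88 CPM in the PGP knockout and 9.81, 9.39 and 8.29 CPM in wild type. All HK2 knockout libraries lay below all others in DMSO (−1.23 ± 0.27 against the PGP knockout, edgeR unadjusted p = 1.3e-04, adjusted p = 0.428). PLEKHO1, a regulator of the actin cytoskeleton, was at 59.2, 39.6 and 37.3 CPM against 85.9, 86.0 and 67.4 CPM, and wild type at 93.1, 69.1 and 73.3 CPM. Its difference of −0.82 ± 0.17 had the smallest p of all genes (edgeR unadjusted p = 8.1e-05). The log2 range of PLEKHO1 was at most 0.59 within any group other than the knockouts in DMSO. Within the HK2 knockout in DMSO it ran from 37.3 to 59.2 CPM. CD70, the ligand of the receptor CD27, was at 64.3, 47.0 and 46.9 CPM against 108, 115 and 74.6 CPM (−0.92 ± 0.22), and wild type spanned both at 82.7, 78.9 and 45.8 CPM. CORO1A, which encodes an actin-binding coronin of leukocytes, had the largest difference, −1.85 ± 0.46, but 2 PGP knockout libraries set it. It was at 32.4, 17.7 and 32.5 CPM in the HK2 knockout against 87.5, 175 and 32.7 CPM in the PGP knockout, where replicate 3 lay within the wild type range of 25.4 to 37.8 CPM.

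SOX4, a transcription factor of progenitor cells, was at 297, 313 and 309 CPM in the HK2 knockout, 338, 474 and 476 CPM in the PGP knockout and 440, 443 and 416 CPM in wild type. The HK2 knockout libraries lay below all others in DMSO, and PGP knockout replicate 1 was the nearest to them. The difference was −0.49 ± 0.11 (edgeR unadjusted p = 2.5e-04, adjusted p = 0.428), and SOX4 was the 1 gene called in the fit of 21 libraries without PGP knockout replicate 1 (−0.63, edgeR adjusted p = 0.0452). MIR124-1HG, the host transcript of a neuronal microRNA, was at 34.4, 49.6 and 51.3 CPM against 60.2, 133 and 84.9 CPM (−1.04 ± 0.27), and wild type was at 65.6, 90.6 and 122 CPM. TMEM221 was at 5.80, 7.47 and 6.34 CPM against 10.7, 15.3 and 12.1 CPM (−0.95 ± 0.24). EEF1A2, the tissue-restricted form of translation elongation factor 1 alpha, was at 67.9, 40.2 and 40.6 CPM against 91.5, 91.6 and 69.8 CPM (−0.77 ± 0.22). NT5DC2 (−0.87 ± 0.23), CCDC92 (−0.75 ± 0.17) and TMEM9 (−0.71 ± 0.20) completed the protein-coding genes that the rule named among the 15 lowest. The other 4 were processed pseudogenes (RPS2P46, PSMC1P1, NACA4P and AC016596.1), whose reads may come from the parent genes and are uncertain. For the 32 genes wild type lay nearer to the PGP knockout in 20 and nearer to the HK2 knockout in 12, where 53.1% of all genes lay nearer to the HK2 knockout. Their median difference from wild type was −0.387 in the HK2 knockout and 0.245 in the PGP knockout.

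ALDH6A1, higher in the HK2 knockout, encodes the mitochondrial methylmalonate semialdehyde dehydrogenase of valine and pyrimidine breakdown. It was at 46.4, 48.2 and 45.2 CPM in the HK2 knockout, 26.2, 27.2 and 25.7 CPM in the PGP knockout and 31.1, 34.2 and 32.7 CPM in wild type. The 3 genotypes did not overlap in DMSO, with the HK2 knockout highest and the PGP knockout lowest (0.82 ± 0.18 between the knockouts, edgeR unadjusted p = 1.5e-04, adjusted p = 0.428). VIM, the intermediate filament vimentin, was at 194, 234 and 169 CPM against 104, 89.0 and 86.2 CPM, with wild type at 120, 114 and 118 CPM. VIM too had 3 separate genotypes in DMSO (1.10 ± 0.27, edgeR unadjusted p = 4.9e-04, adjusted p = 0.433), while at 6 h in wild type its replicates spanned 1.56 on the log2 scale. SLC20A2, a phosphate importer, was at 35.0, 35.8 and 34.4 CPM against 21.7, 17.2 and 17.6 CPM (0.90 ± 0.22), and wild type covered the gap at 28.0, 23.0 and 37.7 CPM. ALDH6A1 and VIM were also the 2 genes called in the fit of 20 libraries that left out wild type 6 h replicate 2.

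Other large differences came from genes that varied widely inside groups. RPL30, a protein of the large ribosomal subunit, was at 246, 259 and 284 CPM in the HK2 knockout and 142, 80.5 and 98.3 CPM in the PGP knockout (1.30 ± 0.54, edgeR unadjusted p = 0.0253). In wild type DMSO it was at 201, 117 and 387 CPM, and in the HK2 knockout at 24 h at 227, 87.2 and 596 CPM, so replicates of 1 group differed more than the knockouts did. MYC, the growth-promoting transcription factor, was at 86.0, 92.9 and 95.9 CPM against 48.7, 41.6 and 44.1 CPM (1.03 ± 0.38, edgeR unadjusted p = 0.0114). Wild type lay between at 63.1, 58.2 and 80.4 CPM, and the 24 h libraries of the HK2 knockout spanned 45.4 to 107 CPM. EAF2, a partner of ELL in transcription elongation, was at 21.7, 20.5 and 21.3 CPM against 10.4, 4.67 and 8.12 CPM (1.47 ± 0.52). APEX1, the endonuclease of base excision repair, was at 121, 160 and 132 CPM against 86.9, 54.8 and 40.4 CPM (1.19 ± 0.33, edgeR unadjusted p = 0.00163). EEF1A1, the common elongation factor 1 alpha, which has many pseudogene copies and is uncertain, was at 197, 90.0 and 155 CPM against 76.2, 55.0 and 55.1 CPM (1.25 ± 0.42). At 24 h its order was the other way, −0.63 ± 0.40 (edgeR unadjusted p = 0.128). The rule also named GRAMD4 (1.36 ± 0.54), PPP4C (1.33 ± 0.55), AQP3 (1.26 ± 0.75), TAF4 (1.16 ± 0.49), CLDND1 (1.15 ± 0.42), ARCN1 (1.12 ± 0.38) and NUP37 (1.04 ± 0.45), and the pseudogenes TXNP6 and AC010343.1. For AQP3 the 95% interval included 0 (−0.30 to 2.83). Among the 108 genes, wild type lay nearer to the HK2 knockout in 88 and nearer to the PGP knockout in 20, where 53.1% of all genes lay nearer to the HK2 knockout. Their median difference from wild type was 0.193 in the HK2 knockout and −0.499 in the PGP knockout.

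**Figure D3:**
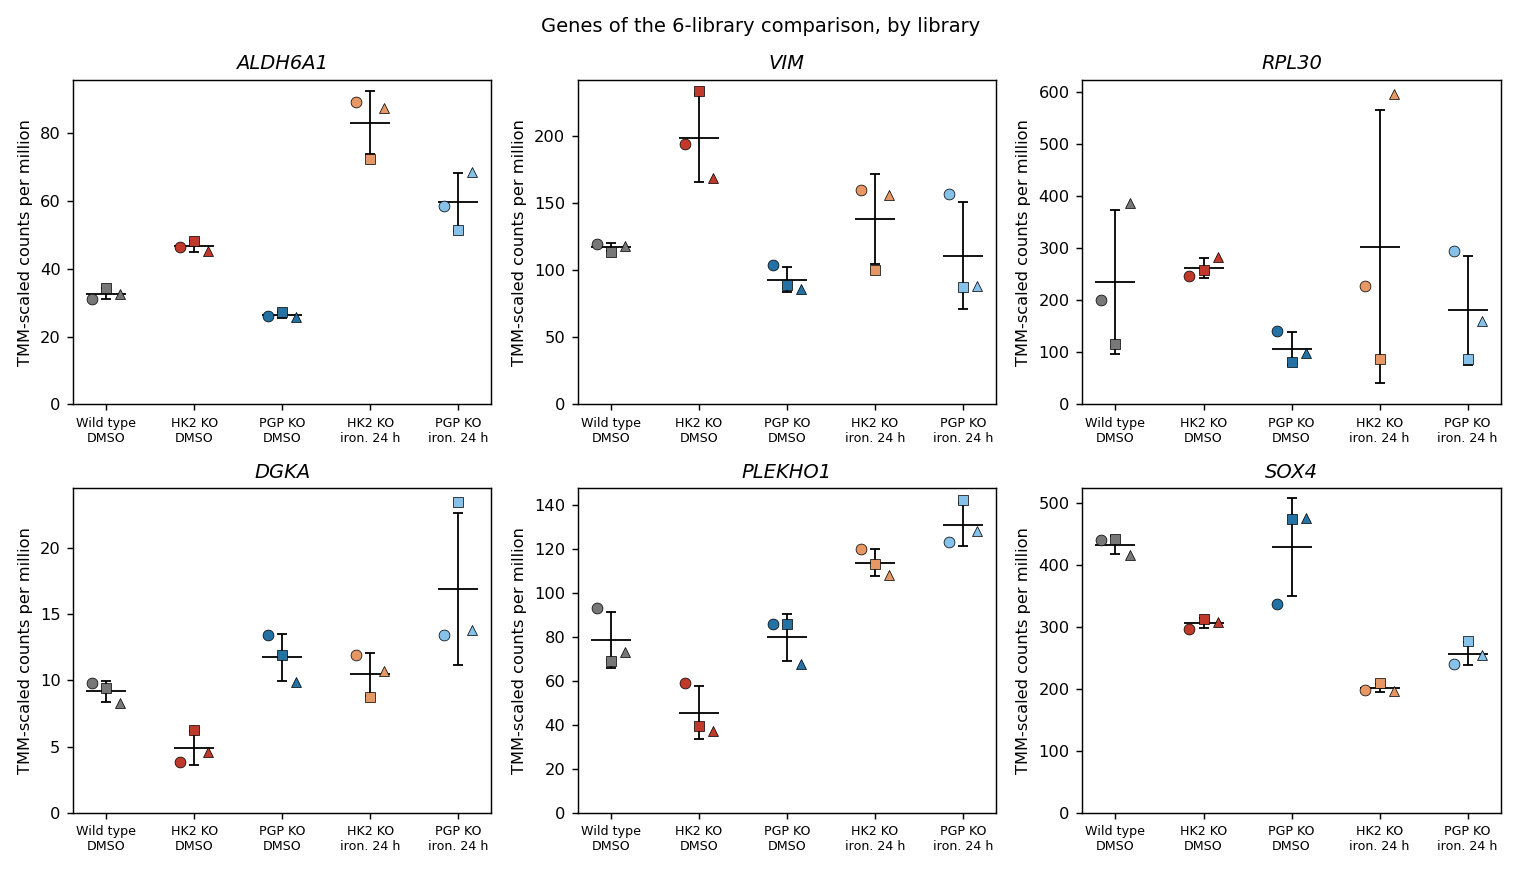
TMM-scaled CPM (vertical axes, linear from 0) of 6 genes in 15 libraries of 5 groups, with circles, squares and triangles for replicates 1, 2 and 3, and the mean and SD of 3 libraries. In DMSO SOX4 in the HK2 knockout (297 to 313) lies below the PGP knockout (338 to 476), whereas RPL30 spans 87.2 to 596 within the HK2 knockout at 24 h.

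At 24 h of ironomycin the same lines were compared in libraries that had no part in choosing these genes. Of the 140, 122 had the same sign as in DMSO (87.1%), 97 of the 108 higher and 25 of the 32 lower, where 55.2% of all genes had the same sign in both treatments. The genes move together, so these are not 140 separate observations, and the median difference at 24 h was smaller, 0.231 for the 108 and −0.177 for the 32. An unadjusted p under 0.05 at 24 h with the same sign was reached by 1 of the 108 (ALDH6A1) and by 8 of the 32 (BEX3, DGKA, HK1, HK2, MCEMP1, MIR124-1HG, SOX4 and TMEM221), where 3.96% of all genes had such a p, 1.46% higher and 2.5% lower in the HK2 knockout. ALDH6A1 was at 89.3, 72.4 and 87.6 CPM against 58.6, 51.6 and 68.6 CPM (0.48 ± 0.17, edgeR unadjusted p = 0.00899). SOX4 was at 199, 209 and 196 CPM against 240, 277 and 255 CPM (−0.35 ± 0.11, edgeR unadjusted p = 0.00494). DGKA was at 11.9, 8.74 and 10.7 CPM against 13.4, 23.5 and 13.8 CPM (−0.69 ± 0.24, edgeR unadjusted p = 0.00851). BEX3 was at 131, 124 and 139 CPM against 180, 163 and 180 CPM in DMSO and at 129, 109 and 124 CPM against 175, 141 and 188 CPM at 24 h (−0.41 ± 0.13 and −0.48 ± 0.14). The lines did not overlap at 24 h for these 9 genes, except for MCEMP1, a mast-cell and monocyte membrane protein, where 8.27% of all genes did not overlap. For HK1 the replicate 2 libraries were level after rounding. MCEMP1 libraries were at 39.9, 57.6 and 47.0 against 55.9, 73.0 and 62.2 CPM.

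**Figure D4:**
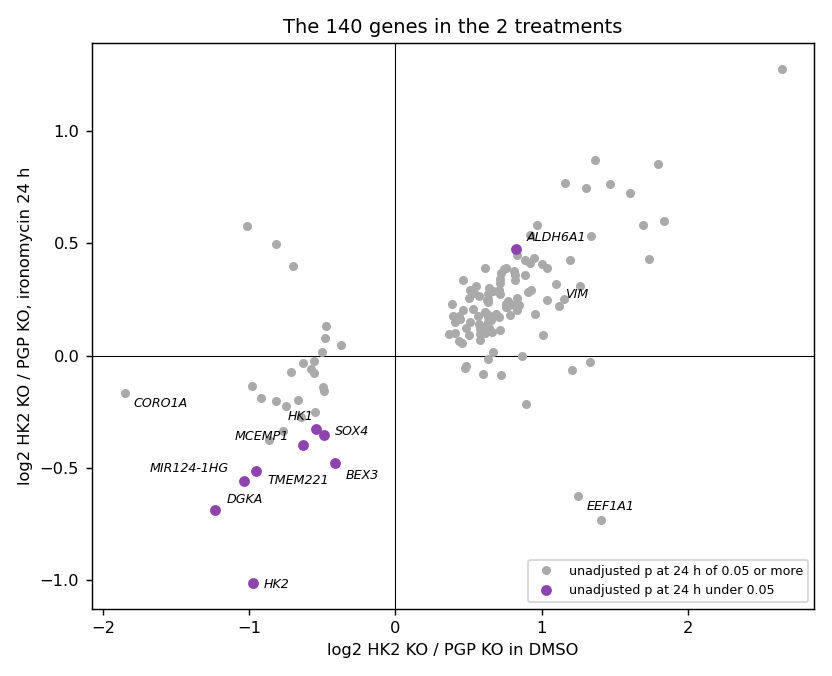
Log2 HK2 knockout over PGP knockout from the fit of 21 libraries in DMSO (horizontal) and at 24 h of ironomycin (vertical) for the 140 genes, 1 point per gene. Purple points have an unadjusted p under 0.05 at 24 h; HK2 lies at −0.97 and −1.01, ALDH6A1 at 0.82 and 0.48, and EEF1A1 at 1.25 and −0.63.

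In that comparison at 24 h, 1 of 11610 genes was called (0.00861%), TKTL1, a transketolase-like gene related to the enzymes of the pentose phosphate pathway. It was at 0.712, 0.624 and 0.383 CPM in the HK2 knockout and at 7.75, 6.28 and 3.51 CPM in the PGP knockout (−3.31 ± 0.55, edgeR adjusted p = 0.0492). In DMSO it was at 1.34, 1.36 and 2.50 CPM against 6.69, 5.74 and 2.41 CPM, where replicate 3 of the lines met (−1.48 ± 0.46, edgeR unadjusted p = 0.00367, adjusted p = 0.436), with wild type at 2.92, 4.59 and 1.99 CPM. The levels are low, and the call was lost without any 1 of the 3 HK2 knockout libraries (edgeR adjusted p = 0.372, 0.427 and 0.909) and without PGP knockout replicate 1 (0.495) or 2 (0.138), but not without replicate 3 (0.0227). CD36, a fatty acid and lipoprotein receptor of monocytes, was higher in the HK2 knockout in both treatments without being called. It was at 30.8, 29.2 and 30.6 CPM against 21.1, 24.6 and 19.3 CPM in DMSO (0.47 ± 0.16, edgeR unadjusted p = 0.00726, adjusted p = 0.436), and at 33.0, 25.4 and 27.6 CPM against 18.2, 14.6 and 18.5 CPM at 24 h (0.74 ± 0.16, edgeR unadjusted p = 1.8e-04, adjusted p = 0.507). Wild type DMSO libraries stood at 20.9, 16.1 and 16.6 CPM, within or below the PGP knockout. The difference of the difference, 24 h minus DMSO, was called for 0 of 11610 genes (0.0%), with 457 at an unadjusted p under 0.05 (3.94%) and a smallest adjusted p of 0.968. No gene was thus shown to differ between the knockouts by a treatment-dependent amount.

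The counterpart of this comparison is the mean of both knockouts minus wild type in DMSO. A change in 1 line alone can also move this mean, so a call on it is not by itself a change that both lines share. The test of the mean called 0 of 11610 genes (0.0%) in the fit of 21 libraries, with 496 at an unadjusted p under 0.05 (4.27%), while DESeq2 called 12, 6 in each direction. With the replicate number as a block edgeR called 15 (0.129%), 7 higher and 8 lower, where 0 (0.0%) were called between the knockouts. The 4 smallest p-values lay just outside the threshold, and their genes are named for that, after the values were seen. RGS16, which damps signalling from G-protein-coupled receptors, was at 33.9, 26.5 and 31.9 CPM in the HK2 knockout, 37.2, 30.0 and 29.6 CPM in the PGP knockout and 58.9, 47.8 and 69.5 CPM in wild type. The knockouts overlapped and both lay below wild type, −0.91 ± 0.16 for their mean (edgeR adjusted p = 0.0503) and −0.07 ± 0.20 between them (95% interval −0.47 to 0.34). GSG1 was at 12.7, 11.5 and 10.4 CPM, 6.42, 14.9 and 11.4 CPM and, in wild type, 2.92, 5.01 and 1.66 CPM, 1.84 ± 0.32 for the mean of the knockouts (edgeR adjusted p = 0.0503) and 0.07 ± 0.31 between them (95% interval −0.58 to 0.71). TOX, a transcription factor of lymphoid cells, was at 0 to 0.893 CPM in the 6 knockout libraries, about the floor, and at 5.43, 1.67 and 4.48 CPM in wild type (edgeR adjusted p = 0.0503). VAT1L was at 12.1, 12.1 and 17.7 CPM, 22.2, 18.3 and 24.4 CPM and, in wild type, 40.7, 44.0 and 41.8 CPM. For VAT1L the mean of the knockouts was lower by −1.28 ± 0.24 (edgeR adjusted p = 0.0515), and the HK2 knockout also lay below the PGP knockout (−0.63 ± 0.30, edgeR unadjusted p = 0.0477, adjusted p = 0.511). With the replicate block all 4 were called for the mean of the knockouts, at edgeR adjusted p = 0.0015 for RGS16 and VAT1L, 0.00219 for GSG1 and 0.016 for TOX. ARRDC4, described above, was then called lower as well (−1.61, edgeR adjusted p = 0.0377). Without the block it was not called (−1.68, edgeR adjusted p = 0.0973). Its difference depended on wild type replicate 3 and was −0.86 without that library in the fit without the block (edgeR unadjusted p = 0.0183).

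OFD1, a centrosome and cilium protein, was the 1 gene called in the HK2 knockout against wild type with 21 libraries (0.83, edgeR adjusted p = 0.0353, 1 of 11610 or 0.00861%), where 0 were called for the PGP knockout, with 648 at an unadjusted p under 0.05 (5.58%, against 5.22% for the HK2 knockout). The OFD1 call was lost without HK2 knockout replicate 1, 2 or 3 (edgeR adjusted p = 0.147, 0.247 and 0.0825) and without wild type replicate 1 or 3 (0.0948 and 0.306), but not without wild type replicate 2 (0.0174). With the replicate block OFD1 was 1 of 19 genes called (0.164%, edgeR adjusted p = 9.9e-04). OFD1 was at 100, 97.8 and 95 CPM in the HK2 knockout, 82.4, 71.4 and 66.3 CPM in the PGP knockout and 58.1, 63.9 and 43.1 CPM in wild type. The PGP knockout thus lay between, 0.42 above wild type (edgeR adjusted p = 0.782), and the knockouts differed by 0.41 ± 0.13 (edgeR unadjusted p = 0.00517, adjusted p = 0.436). At 24 h the lines stood together at 53.2, 51.0 and 40.5 against 47.1, 56.0 and 45.2 CPM. FGL2, a fibrinogen-like immune protein named after its values were seen, was at 32.6, 25.0 and 20.8 CPM, 24.1, 16.8 and 15.6 CPM and, in wild type, 11.9, 6.68 and 9.12 CPM. Both knockouts lay above wild type (1.25 ± 0.25 for their mean, edgeR adjusted p = 0.0698, and 0.0015 with the replicate block) and overlapped each other. Both differences from wild type share the wild type libraries, and no count of genes common to them is given.

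**Figure D5:**
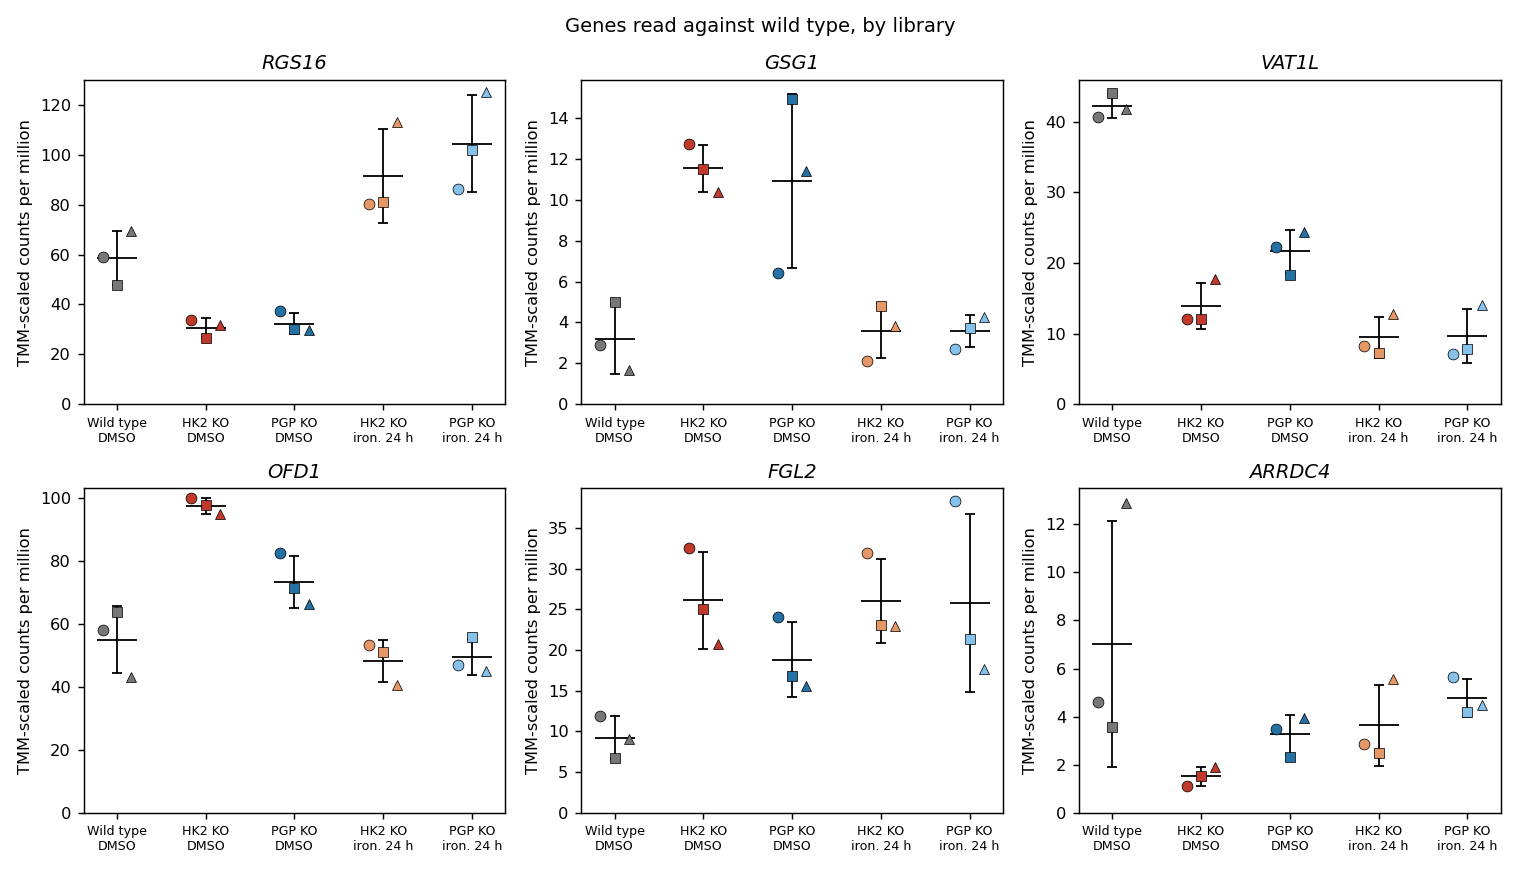
TMM-scaled CPM (vertical axes, linear from 0) of 6 genes in 15 libraries of 5 groups, with circles, squares and triangles for replicates 1, 2 and 3, and the mean and SD of 3 libraries. RGS16 and GSG1 show overlapping knockouts away from wild type in DMSO, VAT1L, OFD1 and ARRDC4 show the HK2 knockout farther from wild type than the PGP knockout.

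By pathway, none of 978 distinct genes from 48 lists was called between the knockouts with 21 libraries, and 94 (9.61%) had an unadjusted p under 0.05, close to the 9.71% of all genes. Over the 40 lists with at least 10 tested members, the median log2 difference ran from −0.194 to 0.098, against −0.016 for all genes. Of 23 genes of glycolysis and lactate handling 0 were called, with a median of −0.129, and 3 had an unadjusted p under 0.05. PKM, the pyruvate kinase of most tissues, was at 538, 421 and 458 CPM in the HK2 knockout against 560, 778 and 677 CPM in the PGP knockout and 629, 522 and 532 CPM in wild type (−0.51 ± 0.16, edgeR unadjusted p = 0.00394). TPI1, triosephosphate isomerase, was at 487, 466 and 503 CPM against 530, 605 and 623 CPM (−0.27 ± 0.11). The most abundant members showed less, ENO1 at −0.24 ± 0.13 and ALDOA at −0.01 ± 0.13. Of 13 pentose phosphate genes 0 were called (median −0.138). TALDO1, transaldolase, was at 388, 354 and 360 CPM against 449, 420 and 437 CPM (−0.25 ± 0.10, edgeR unadjusted p = 0.019), and RPE, the ribulose phosphate epimerase, was at 13.8, 17.0 and 18.3 CPM against 9.10, 9.35 and 12.5 CPM (0.66 ± 0.22). Of the 14 tested genes of glycerolipid synthesis, where glycerol 3-phosphate enters, 0 were called and 1 had an unadjusted p under 0.05, AGPAT5 (0.28 ± 0.12).

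Genes of mitochondrial energy metabolism had list medians near that of all genes, with single members in both directions. Of 31 genes of pyruvate entry and the tricarboxylic acid cycle 0 were called (median −0.084), with 2 higher and 4 lower at an unadjusted p under 0.05. SUCLG2, a succinate-CoA ligase subunit, was at 39.3, 43.3 and 45.0 CPM against 35.3, 28.5 and 26.6 CPM (0.50 ± 0.20), and IDH3B, an isocitrate dehydrogenase subunit, at 82.4, 89.1 and 83.4 CPM against 101, 109 and 115 CPM (−0.35 ± 0.15). The 13 mitochondrially encoded messenger RNAs had a median of −0.098 and 0 at an unadjusted p under 0.05, with MT-CO3 at −0.30 ± 0.21 and MT-ND3 at 0.08 ± 0.20. Of 35 complex I subunits 3 had such a p and the median was −0.061. NDUFB3, an accessory subunit, was at 63.2, 67.4 and 66.5 CPM against 42.5, 31.2 and 30.9 CPM, with wild type at 39.0, 39.4 and 82.1 CPM (0.92 ± 0.43, edgeR adjusted p = 0.511 with 21 libraries and 0.00349 with 6). It is one of the 8 genes called in every 6-library fit that left out a library. With 6 libraries SDHB, a subunit of succinate dehydrogenase (0.53 ± 0.34 with 21, edgeR adjusted p = 0.0261 with 6), and ATP5PD, a subunit of ATP synthase (0.50 ± 0.29, edgeR adjusted p = 0.0433 with 6), were called higher as well. The mitochondrially encoded MT-ATP6 was called lower with 6 libraries (−0.37 with 21, edgeR adjusted p = 0.0433 with 6). UQCRC1, a core subunit of complex III, was at 140, 135 and 143 CPM against 157, 194 and 182 CPM (−0.35 ± 0.10, edgeR unadjusted p = 0.00205). The 77 cytosolic ribosomal protein genes had a median of −0.056, and 3 (3.9%) had an unadjusted p under 0.05. Beside RPL30 these included RPS25, at 439, 466 and 437 CPM against 357, 215 and 230 CPM (0.75 ± 0.28), while the most abundant, RPS29, stood at −0.08 ± 0.12.

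Chaperones of the endoplasmic reticulum were the list of more than 20 tested genes with the highest share of small p-values. Of 26, 0 were called, and 7 (26.9%) had an unadjusted p under 0.05, 6 of them lower in the HK2 knockout, while the list's median was 0.080. HSPA5, the main chaperone of this compartment, was at 721, 999 and 1017 CPM in the HK2 knockout, 945, 1415 and 1307 CPM in the PGP knockout and 1239, 1360 and 1203 CPM in wild type (−0.42 ± 0.17, edgeR unadjusted p = 0.0197, adjusted p = 0.484). SDF2L1, a co-factor of HSPA5, was at 75.0, 97.3 and 95 CPM against 94.2, 168 and 140 CPM (−0.59 ± 0.23), and for both genes PGP knockout replicate 1 lay within the range of the HK2 knockout libraries. Without that library the differences were −0.58 for HSPA5 and −0.79 for SDF2L1 (edgeR adjusted p = 0.257 for each, in the fit of the whole series). With the 6 libraries alone neither was called (edgeR adjusted p = 0.165 for HSPA5 and 0.0788 for SDF2L1). Adding the replicate block to that 6-library fit called both lower (edgeR adjusted p = 0.016 and 0.01). HSP90B1 went the other way (0.26 ± 0.18), and at 24 h HSPA5 stood at −0.03 and the list's median at −0.040. Of 24 tested p53 targets 0 were called, and 4 had an unadjusted p under 0.05, all lower in the HK2 knockout. CDKN1A, the cell cycle inhibitor p21, was at 132, 120 and 111 CPM against 171, 149 and 139 CPM and 172, 150 and 144 CPM in wild type (−0.34 ± 0.15, edgeR unadjusted p = 0.0361). DDB2, a DNA damage sensor, was at 34.6, 36.2 and 37.7 CPM against 53, 44.2 and 51.4 CPM (−0.45 ± 0.21). The list's median was −0.072. Of 41 genes of DNA replication and G1/S, 4 had an unadjusted p under 0.05 (9.76%), and of 35 mitotic genes 1 did (2.86%).

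Lineage genes gave no common direction. Of 25 tested myeloid surface and granule genes 0 were called (median −0.085). MNDA, a nuclear antigen of myeloid cells, was at 19.0, 15.3 and 12.1 CPM in the HK2 knockout against 6.69, 9.35 and 9.88 CPM in the PGP knockout (0.82 ± 0.28, edgeR unadjusted p = 0.00726), with wild type at 14, 14.2 and 14.1 CPM. MPO, the myeloperoxidase of granules, was at 10.0, 11.7 and 14.2 CPM against 12, 20.8 and 20.2 CPM (−0.56 ± 0.23, and −0.77 without PGP knockout replicate 1), and the most abundant member, PRTN3, stood at 0.01 ± 0.21. IRF8, a transcription factor of monocytes and B cells, was at 196, 202 and 200 CPM against 149, 85.4 and 102 CPM (0.83 ± 0.39, edgeR unadjusted p = 0.043), with wild type at 123, 145 and 232 CPM. Of 14 KMT2A fusion targets 0 were called and 3 had an unadjusted p under 0.05, CDK6 at 0.35 ± 0.13, JMJD1C at 0.35 ± 0.15 and MYB at −0.26 ± 0.10. EBF1, an early B-cell factor, was at 0, 0.34 and 0.192 CPM in the HK2 knockout, below the level of 3 counts, against 1.07, 1.70 and 0.658 CPM in the PGP knockout and 2.51, 1.25 and 1.33 CPM in wild type (edgeR unadjusted p = 0.00613). The B-lymphoid markers, in sum lower in the HK2 knockout as given above, overlapped between the lines, and their part in these differences was not tested. The 36 interferon-stimulated, 16 NF-kB and 13 iron uptake and storage genes tested had 0 at an unadjusted p under 0.05, with medians of −0.114, −0.194 and 0.098. ETV5, a target of MAP kinase signalling, was at 5.36, 4.75 and 7.50 CPM against 12.8, 8.29 and 14 CPM, with wild type at 7.73, 8.14 and 10.8 CPM (−0.99 ± 0.25, edgeR unadjusted p = 6.5e-04, adjusted p = 0.436). Members of these lists other than the 2 with the highest mean are named after their values were seen.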

How the data were processed

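Per the labels' protocols, RNA was prepared with a Qiagen kit and libraries with Lexogen's 3′ kit. Per the submitters' processing notes, bcl2fastq 2.20.0.422, HISAT2, HTSeq and hg19 were used; the strand setting is not given in the sources used here, so overlapping and antisense genes are uncertain. The deposited values are raw whole-number counts per gene, with no normalization by the authors, for 54042 Ensembl IDs in 21 libraries. A symbol was found for 51854 IDs (51661 in the name table, the others in GENCODE 29), and the other 2188 held 8 counts.

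Counts were fitted in edgeR 4.0.16 (R 4.3.3, limma 3.58.1) by quasi-likelihood over all 21 libraries, with TMM factors and filterByExpr (minimum count 10, minimum total 15), which kept 11610 genes. A gene was called where its p, adjusted by Benjamini-Hochberg across the genes tested, was under 0.05. The SE is the log2 difference divided by the root of the F statistic, and 95% intervals use the fit's degrees of freedom. Named genes were HK2, PGP and their paralogs (1 is not reported here); the 15 highest and 15 lowest called genes whose groups did not overlap and whose 6 libraries averaged 5 CPM or more; and called members of each list, or the 2 with the highest mean. This rule, the comparisons and the 48 lists were set with earlier results of these data known. Because nothing was called, the rule was applied to the fit of the 6 libraries alone. Deviations of libraries are from log2 CPM with a prior count of 2. Alternatives were RLE factors, no filter, DESeq2 1.42.0, a replicate block, fits of 6 or 9 libraries, and libraries left out. The scripts were tested on simulated data. Same-numbered HK2 and PGP knockout libraries deviated from their group means with correlations of 0.106, −0.0165 and 0.105 in DMSO, and of 0.108, 0.301 and 0.169 at 24 h. Against wild type the correlations were 0.205, 0.0291 and 0.161 (HK2) and 0.0929, 0.0835 and 0.0949 (PGP). Every pair passed 0.1 at 24 h alone, where the replicate block left the 1 call in place. In DMSO the fit without the block was kept as the reported one. Blocked values are given for some of the results whose call they change.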

Additional observations from a re-analysis of the deposited data

Results flagged for a closer look

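SPG11, a gene of lysosome and axon maintenance, and ZNF592, a zinc finger gene, had non-overlapping lines in both treatments with opposite order. SPG11 was at 23.7, 20.5 and 21.1 CPM in the HK2 knockout against 15.8, 14.7 and 16.7 CPM in the other line in DMSO, and at 19.0, 20.8 and 16.5 CPM against 24.3, 22.3 and 23.6 CPM at 24 h. Its difference changed by −0.79 between the treatments (edgeR unadjusted p = 0.00182, adjusted p = 0.968). ZNF592 was at 9.15, 11.2 and 10.2 CPM against 14.2, 16.1 and 14 CPM in DMSO, and at 13.1, 30.4 and 15.3 CPM against 13, 11.9 and 11.3 CPM at 24 h. Its difference changed by 1.24 (edgeR unadjusted p = 0.00236, adjusted p = 0.968). At 24 h the ZNF592 libraries of the lines came as near as 13.1 and 13 CPM. The HK2 knockout library at 30.4 CPM stood far above the rest. SPG11 and ZNF592 are among the 4 genes with the smallest p for this change between treatments. They were named for that after the values were seen, and neither was called.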

How the results depend on the processing

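The count of genes called between the knockouts in DMSO was 0 in the fit of 21 libraries and also 0 with RLE factors, DESeq2 and the replicate block. It was 2 without wild type 6 h replicate 2, 20 in the fit of the 9 DMSO libraries, 141 with no low-count filter, 140 in the fit of the 6 libraries and 226 in that fit with the replicate block. Leaving out 1 library gave 0 to 1 calls with 21 libraries, and 9 to 816 with the 6 libraries alone, a series of fits chosen after seeing the data. The cause of these shifts was not tested. The replicate block changed the counts of the mean of both knockouts against wild type (15 calls) and of the HK2 knockout against wild type (19 calls), and no other count of the fits of 21 libraries.

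The HK2 difference kept its direction throughout. It was called at −0.965 with the 9 DMSO libraries, −0.955 with no filter, −0.957 with the 6 libraries and −0.951 with the 6 libraries and the replicate block, and it ranged from −1.088 to −0.879 on leaving out single libraries. The PGP difference was called nowhere and ranged from 0.275 to 0.419 on leaving out single libraries.

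Against wild type, where 0 genes were called for the mean of both knockouts, RLE factors gave 4, the fit without 6 h replicate 2 gave 9, DESeq2 and the 9 DMSO libraries 12 each, and no filter 60. Leaving out 1 library gave 0 to 12, the 12 without wild type replicate 2. For the HK2 knockout the 1 call became 11 without 6 h replicate 2, 12 with the 9 DMSO libraries, 23 with DESeq2, 59 with no filter, and 0 to 8 on leaving out 1 library. For the PGP knockout it became 5 with the 9 DMSO libraries and 96 with no filter. At 24 h no filter gave 49 calls in place of 1, and leaving out 1 library gave 0 to 1. For the change of the difference between treatments no filter gave 30.

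Leaving out 1 library turned the direction of 4 genes whose difference between the knockouts was near 0 or set by 1 library. MTRNR2L12 turned to 0.078 with 21 libraries and 0.086 with 6 without PGP knockout replicate 2 (range −3.232 to 0.086). With no low-count filter its difference of −2.671 was nonetheless called (edgeR adjusted p = 1.57e-83). A call in the fit with no filter can thus rest on 1 library. RGS16 turned to 0.033 and 0.050 without HK2 knockout replicate 2 and to 0.044 and 0.059 without PGP knockout replicate 1 (range −0.143 to 0.059). GSG1 turned to −0.007 without HK2 knockout replicate 1 and to −0.187 and −0.173 without PGP knockout replicate 1 (range −0.187 to 0.355). TOX turned to 0.101 without HK2 knockout replicate 2 (range −1.034 to 0.101). The median difference of each of the 48 lists moved by less than the spread between replicates under the 5 settings tried for it. With 3 libraries a group and 3829274 to 5924072 counts, genes near 1 CPM rest on a few reads each.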

Other observations

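Single libraries held isolated high values. MTRNR2L12, a gene with a near-identical mitochondrial copy and therefore uncertain, was at 3542 CPM in PGP knockout DMSO replicate 2, against 96.3 to 291 CPM in the other 5 libraries. It was also at 6481 CPM in HK2 knockout replicate 1 at 24 h. The pseudogene RPS26P47 was at 231 CPM in PGP knockout DMSO replicate 1 and at most 16.1 CPM in the other 5. These were the 2 genes with a library of at least 50 CPM that was at least 5 times the next of the 6.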
